A study of Homo sapiens with 12 samples.

Results

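Serine synthesis and folate one-carbon metabolism are served by 10 enzyme genes followed here across 4 groups of transfected cells: PHGDH, PSAT1, PSPH, SHMT1, SHMT2, MTHFD1, MTHFD2, MTHFD1L, ALDH1L2 and MAT2A. They were chosen by name as members of this pathway, with earlier results of these data known. All 10 of 10 were found among the 52859 genes used. The cells were MDA-MB-231, an established line from a human triple-negative breast cancer. Every group received 20 nM of a locked nucleic acid (LNA), a chemically stabilised oligonucleotide that pairs with a complementary RNA, by lipid transfection, and RNA was collected on day 2. The groups were a control LNA, 2 LNAs named for the mitochondrial asparagine tRNA (mtAsn-1 LNA and mtAsn-2 LNA) and 1 named for the mitochondrial lysine tRNA (mtLys LNA), with 3 libraries each. No untransfected cells were among the 12 libraries, so each change is read against cells that had also taken up an LNA. The comparisons here ask how the RNA of these enzymes differs between cells given the different LNAs.

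Cells make serine from the glycolytic intermediate 3-phosphoglycerate in 3 steps, catalysed in order by PHGDH, PSAT1 and PSPH. Serine hydroxymethyltransferases (SHMT1 in the cytosol, SHMT2 in mitochondria) then pass a carbon unit of serine to folate and leave glycine. In mitochondria MTHFD2, MTHFD1L and ALDH1L2 turn this folate-bound unit into formate or carbon dioxide, and in the cytosol MTHFD1 makes it available for purine and thymidylate synthesis. MAT2A joins methionine, which the folate pathway helps to regenerate, with ATP to make S-adenosylmethionine, the methyl donor of the cell. Several of these genes are known targets of the transcription factor ATF4, which is induced in many cells when mitochondria are impaired. MDA-MB-231 is known as a line with low PHGDH.

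Libraries held between 17978825 and 37708993 counts, and 16051 genes had enough reads to be tested, all 10 enzymes among them. Replicates of a group correlated across genes at 0.9925 to 0.9963 in log2 CPM (counts scaled to library size). Nothing in the labels says that replicates were cultured separately, and a p-value here therefore measures only how libraries of a group spread, which may be technical. The labelled line was checked against its markers: the summed level of VIM, CD44, CAV1, AXL and LGALS1 was 5786 to 7278 CPM, and that of ESR1, PGR and CDH1 was 0.0359 to 0.641 CPM. A list of 5 leukocyte markers summed to 2.76 to 3.92 CPM in control, 3.74 to 4.23 with mtAsn-1 LNA, 3 to 3.68 with mtAsn-2 LNA and 4.34 to 5.32 with mtLys LNA. A list of 6 endothelial and fibroblast markers summed to 20.2 to 25.4, 22.9 to 25.9, 17 to 19.7 and 25.1 to 27.4 CPM in the same order. Of these markers PECAM1 (231 to 616 reads), PDGFRB (132 to 327), CD14 (50 to 111), LYZ (10 to 50) and VWF (1 to 15) had enough reads to be tested, and CDH5, DCN and CD3E had at most 1 read in any library. By edgeR, PECAM1 rose with mtAsn-1 LNA (log2 fold change 0.44, adjusted p = 2.28e-04) and mtLys LNA (0.54, 7.76e-06), and LYZ rose with mtLys LNA (0.96, 0.00185). PDGFRB fell with mtAsn-1 LNA (-0.41), mtAsn-2 LNA (-0.53) and mtLys LNA (-0.32, a call lost without control replicate 1), and VWF fell with mtAsn-2 LNA (-1.26, a call lost in 6 of 16 other settings). The part of these markers in the results was not tested. The asparagine tRNA gene had 1 to 6 reads per library, too few to check the labels. The lysine tRNA gene stood at 6.20 ± 0.514 CPM (SD, n = 3) in control and 7.74 ± 0.487 with mtLys LNA (edgeR, adjusted p = 0.0979), so its counts, which were not lower, do not check the label either.

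The enzymes differed widely in level. In the control group, the level per kilobase of exon (RPKM, CPM divided by exon length, used here to compare genes) was 155 ± 9.98 for MAT2A, 122 ± 3.49 for SHMT2, 84.8 ± 9.46 for PSAT1 and 56.2 ± 1.46 for MTHFD1 (SD, n = 3). MTHFD2 (14.0 ± 0.83) lay above PSPH (12.6 ± 0.317) by little more than its own spread, followed by PHGDH (4.29 ± 0.42) and MTHFD1L (2.90 ± 0.182). SHMT1 (0.154 ± 0.0549) and ALDH1L2 (0.136 ± 0.0451) were lowest and did not differ beyond their spread. The length used is that of all annotated exons together, so a gene with long or rarely used exons, such as PHGDH (7645 bases) or MTHFD1L (13465 bases), reads lower on this scale. Because each library pools the RNA of many cells, less RNA per cell and fewer cells that express a gene cannot be told apart. The values are also shares of a library, so a change in a gene's amount cannot be told from a change in the rest of the RNA.

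The upstream sequences of 4 enzymes are shown because these 4 carried the changes described next: PHGDH, PSAT1 and MAT2A were lower with each tRNA LNA, and MTHFD2 moved in both directions. The windows are from RefSeq (GRCh38.p14), plus strand, read 5′ to 3′, and end at the base before the first base of the gene as counted. Capitals mark the 5-letter motif CCAAT or its reverse complement.

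PHGDH, chr1:119711684-119711933: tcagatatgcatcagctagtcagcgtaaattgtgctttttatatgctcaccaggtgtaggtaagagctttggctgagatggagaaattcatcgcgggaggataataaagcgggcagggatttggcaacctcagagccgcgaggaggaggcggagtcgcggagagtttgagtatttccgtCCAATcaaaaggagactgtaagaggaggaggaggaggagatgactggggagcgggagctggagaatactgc
PSAT1, chr9:78296875-78297124: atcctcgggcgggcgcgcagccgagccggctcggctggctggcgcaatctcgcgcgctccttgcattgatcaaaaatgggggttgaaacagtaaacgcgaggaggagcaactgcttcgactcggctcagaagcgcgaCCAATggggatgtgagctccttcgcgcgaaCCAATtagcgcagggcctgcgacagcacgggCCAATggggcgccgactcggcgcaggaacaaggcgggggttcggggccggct
MTHFD2, chr2:74198365-74198562: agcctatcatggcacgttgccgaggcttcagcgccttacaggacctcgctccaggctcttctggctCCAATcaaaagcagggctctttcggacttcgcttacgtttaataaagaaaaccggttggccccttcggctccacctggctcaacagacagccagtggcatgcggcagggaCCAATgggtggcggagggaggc
MAT2A, chr2:85538918-85539167: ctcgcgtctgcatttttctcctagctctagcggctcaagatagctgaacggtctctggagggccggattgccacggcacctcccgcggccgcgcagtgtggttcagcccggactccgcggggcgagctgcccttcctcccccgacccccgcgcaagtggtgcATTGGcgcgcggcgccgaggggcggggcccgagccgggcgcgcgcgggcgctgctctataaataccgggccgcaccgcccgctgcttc

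PSAT1 held 3 matches to CCAAT, at -113, -83 and -52 from its start, and MTHFD2 held 2, at -184 and -74 from its RefSeq start, which lies inside the counted gene. PHGDH held 1 at -71, and MAT2A held 1 on the minus strand at -88. Of the 7 enzymes that had a window (PSPH, SHMT2 and ALDH1L2 had none), 7 held CCAAT on either strand in the 250 bases before a start, against 32.4% of the 16113 windows of tested genes. GGGCGG was found for 4 of the 7 (61.5% of windows of tested genes) and CACGTG for 2, MTHFD1 and MTHFD1L (8.01%). The ATF4-type motif TGATGNAA was found for 1, MTHFD1L (1.75%). Motifs were searched on both strands, and a base could count for more than 1 motif. A gene with several starts, here MTHFD1L, was counted once if any of its windows matched. A match describes the letters in these windows only. The 7 enzymes with CCAAT included some that fell, some that rose, and SHMT1, where no difference was detectable. The part of CCAAT in these levels was not tested.

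**Figure D1:**
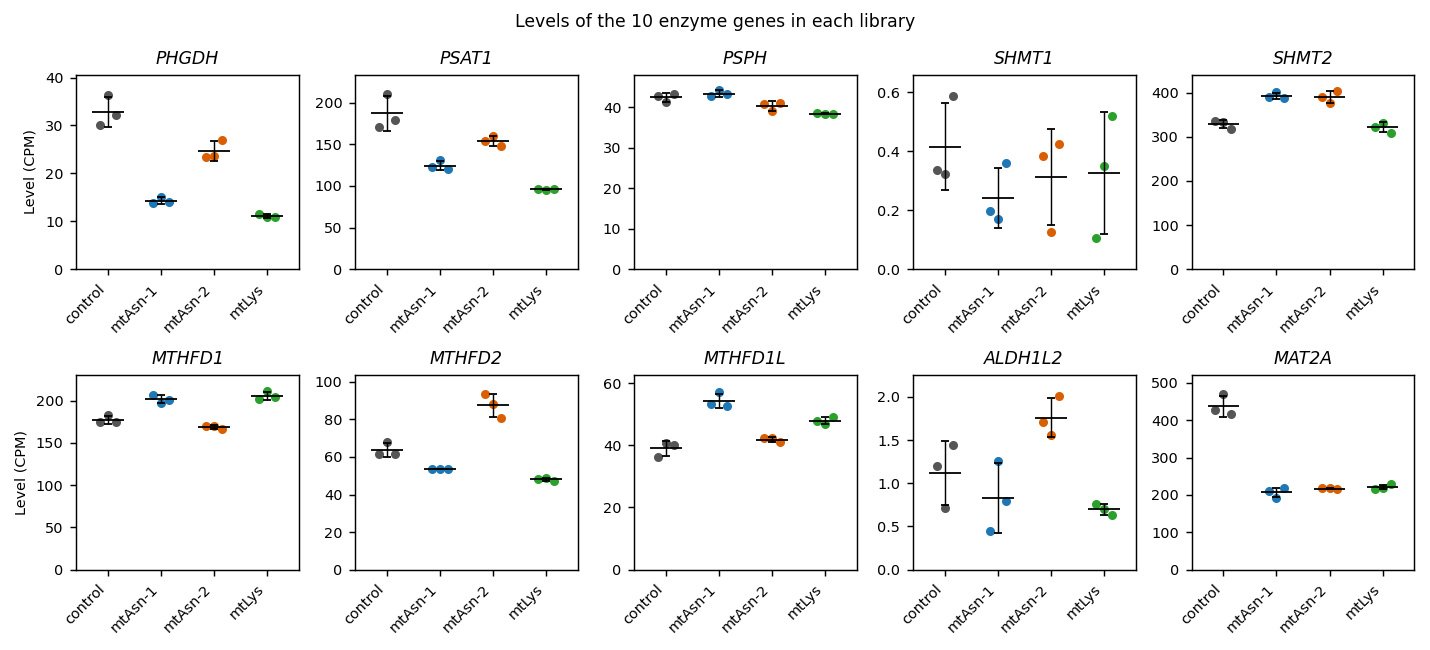
Level of each enzyme gene in CPM (vertical axis, starting at 0) in the 3 libraries of each LNA group. Points are libraries, horizontal bars the mean and error bars the SD (n = 3). MAT2A lies at 416 to 469 CPM in control and at 193 to 229 CPM with the tRNA LNAs, while PHGDH and PSAT1 form steps that are lowest with mtLys LNA.

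PHGDH, the enzyme that commits 3-phosphoglycerate to serine (chromosome 1, 119711934 to 119744218, plus strand of hg38, 16 exon blocks), was lower with every tRNA LNA. It stood at 30.0, 36.3 and 32.1 CPM in the control libraries and at 13.8, 15.2 and 13.9 with mtAsn-1 LNA. With mtAsn-2 LNA it stood at 23.4, 23.6 and 27.0 CPM, and with mtLys LNA at 11.6, 10.9 and 10.8. No tRNA LNA library overlapped the control libraries, and the 3 tRNA LNA groups did not overlap each other. Here and below, the share of all genes whose groups separate in this way was not counted. In the 3 comparisons with control, 48.5%, 51.1% and 48.5% of all genes tested passed. Separation of groups is therefore not read as particular to these enzymes. PHGDH fell 2.31-fold with mtAsn-1 LNA (log2 fold change -1.21 ± 0.0786, SE, edgeR adjusted p = 7.01e-13). It fell 1.34-fold with mtAsn-2 LNA (-0.42 ± 0.0697, adjusted p = 1.09e-05) and 2.96-fold with mtLys LNA (-1.57 ± 0.0766, adjusted p = 1.79e-15). Among 10853 genes with mean log2 CPM no lower than 2, 50 had a lower log2 fold change with mtAsn-1 LNA, 1207 with mtAsn-2 LNA and 19 with mtLys LNA. The 3 comparisons share the control libraries.

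PSAT1, the aminotransferase of the following step (chromosome 9, 78297125 to 78330093, plus strand), showed the same order of groups with smaller steps. Its levels were 171, 211 and 179 CPM in control and 123, 131 and 120.3 with mtAsn-1 LNA. With mtAsn-2 LNA they were 155, 159.6 and 148 CPM, and with mtLys LNA 96.8, 95.2 and 96.1. Again no 2 of the 4 groups overlapped. PSAT1 fell 1.51-fold with mtAsn-1 LNA (-0.59 ± 0.0576, edgeR adjusted p = 1.79e-08), 1.22-fold with mtAsn-2 LNA (-0.28 ± 0.056, 1.90e-04) and 1.95-fold with mtLys LNA (-0.96 ± 0.0574, 5.73e-12). Without control replicate 2, the highest control library, the change with mtAsn-2 LNA was -0.19 (adjusted p = 0.00176).

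PSPH, the phosphatase that releases serine (chromosome 7, 56010487 to 56051604, minus strand), varied little. It stood at 41.3 to 43.4 CPM in control, 42.8 to 44.2 with mtAsn-1 LNA, 39.0 to 41.1 with mtAsn-2 LNA and 38.3 to 38.6 with mtLys LNA. The test was passed with mtLys LNA alone of the 3 (-0.14 ± 0.0485, edgeR adjusted p = 0.0179), and that call was lost without control replicate 3 (0.0608), without mtLys replicate 2 (0.0524) and without the filter on low counts (0.0841). With mtAsn-1 LNA the log2 fold change was 0.03 (approximate 95% interval -0.06 to 0.13, adjusted p = 0.608) and with mtAsn-2 LNA -0.07 (-0.17 to 0.02, adjusted p = 0.224). The pseudogene PSPHP1, a copy of PSPH, held reads equal to 30.8% of those of PSPH and passed against control with none of the LNAs (adjusted p = 0.965, 0.781 and 0.603). How reads that fit both were counted is not stated, so the PSPH values are uncertain to that extent.

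**Figure D2:**
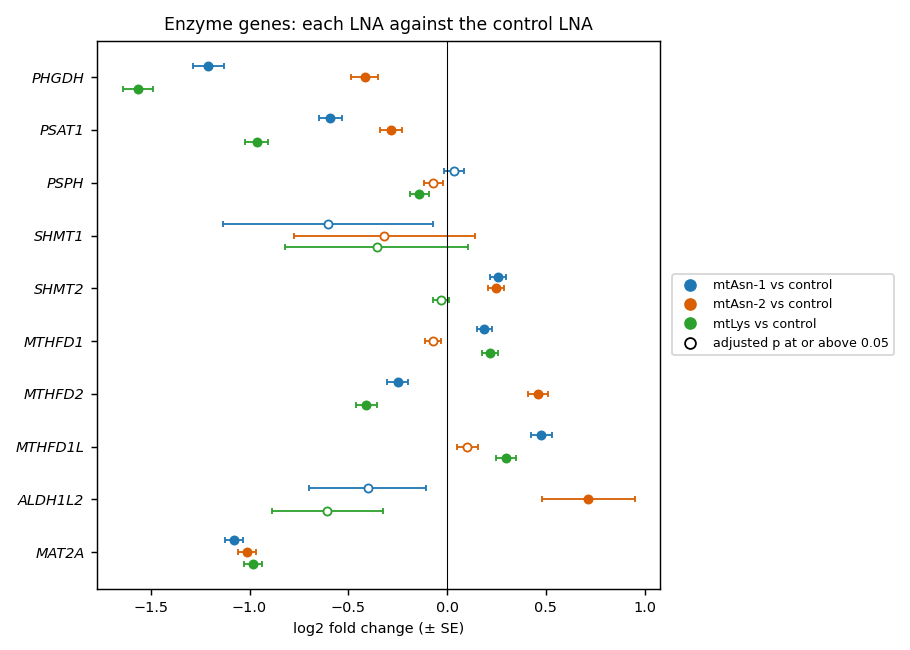
Log2 fold change of each enzyme gene with each tRNA LNA against the control LNA (horizontal axis), with bars of 1 SE from the fit of all 12 libraries. Filled points passed an adjusted p of 0.05. MAT2A points lie together near -1, PHGDH and PSAT1 are spread below 0, and MTHFD2 lies at -0.25, 0.46 and -0.41.

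SHMT2, the mitochondrial enzyme that splits serine (chromosome 12, 57229685 to 57234935, plus strand), was higher with the LNAs named for asparagine tRNA. It stood at 335, 333 and 318 CPM in control, 390.5, 401 and 387 with mtAsn-1 LNA, 390.3, 376 and 403 with mtAsn-2 LNA and 323, 332 and 309.7 with mtLys LNA. Libraries of both asparagine groups lay above all control libraries, and mtLys libraries overlapped them. SHMT2 rose 1.20-fold with mtAsn-1 LNA (0.26 ± 0.0393, edgeR adjusted p = 3.53e-06) and 1.19-fold with mtAsn-2 LNA (0.25 ± 0.039, 5.00e-06), and was at -0.03 with mtLys LNA (approximate 95% interval -0.11 to 0.05, adjusted p = 0.551). An opposite-strand gene, NDUFA4L2, shares 33 exon bases with SHMT2 and had at most 11 reads in a library.

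SHMT1, the cytosolic isozyme (chromosome 17, 18327860 to 18363563, minus strand), was close to the limit of detection with 3 to 14 reads per library. Summed reads were 30 in control, 17 with mtAsn-1 LNA, 32 with mtAsn-2 LNA and 30 with mtLys LNA. These correspond to 0.39 CPM (exact 95% Poisson interval 0.263 to 0.556, counting error only), 0.254 (0.148 to 0.406), 0.33 (0.226 to 0.466) and 0.301 (0.203 to 0.43). The intervals overlap, and a difference was not detectable at this depth. Two-sided exact permutation tests of CPM against control gave p = 0.3, 0.6 and 0.6, where 3 libraries against 3 cannot go below 0.1. The pseudogene SHMT1P1, a copy of SHMT1, had 0 to 4 reads per library, in total equal to 16.5% of the SHMT1 reads. How reads that fit both were counted is not stated. SMCR8, on the opposite strand, shares 197 bases (7.27% of SHMT1 exon length) and had 0 or 1 read per library.

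MTHFD2, the mitochondrial dehydrogenase and cyclohydrolase (chromosome 2, 74198563 to 74217565, plus strand), passed the test in opposite directions with the asparagine LNAs. It stood at 61.4, 68.0 and 61.5 CPM in control and at 53.6, 53.7 and 53.5 with mtAsn-1 LNA. With mtAsn-2 LNA it stood at 93.4, 88.3 and 81.0 CPM, and with mtLys LNA at 48.3, 48.7 and 47.1. The mtAsn-2 libraries were the highest and the mtLys libraries the lowest, with no overlap between any groups. MTHFD2 fell 1.19-fold with mtAsn-1 LNA (-0.25 ± 0.0543, edgeR adjusted p = 3.60e-04) and 1.33-fold with mtLys LNA (-0.41 ± 0.053, 2.78e-07), and rose 1.37-fold with mtAsn-2 LNA (0.46 ± 0.0512, 1.54e-08). Its exons share 1324 bases (29.1% of their length) with SLC4A5 on the opposite strand, which had 5 to 19 reads per library against 940 to 3391 for MTHFD2.

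MTHFD1L, which releases formate inside mitochondria (chromosome 6, 150865679 to 151101887, plus strand), and MTHFD1, its trifunctional cytosolic relative (chromosome 14, 64388353 to 64460025, plus strand), were higher with mtAsn-1 LNA and mtLys LNA. MTHFD1L stood at 36.2, 40.7 and 40.2 CPM in control, 53.3, 57.0 and 52.7 with mtAsn-1 LNA, 42.2, 42.3 and 41.0 with mtAsn-2 LNA and 47.9, 47.0 and 49.1 with mtLys LNA. It rose 1.39-fold with mtAsn-1 LNA (0.48 ± 0.0535, edgeR adjusted p = 2.50e-08) and 1.23-fold with mtLys LNA (0.30 ± 0.0524, 2.73e-05), and did not pass with mtAsn-2 LNA (0.10, approximate 95% interval -0.0021 to 0.20, adjusted p = 0.112). These mtAsn-2 libraries lay just above the highest control library. MTHFD1 stood at 174 to 182 CPM in control, 197 to 207 with mtAsn-1 LNA, 166 to 170.2 with mtAsn-2 LNA and 202 to 211 with mtLys LNA. It rose 1.14-fold with mtAsn-1 LNA (0.19 ± 0.0386, 2.05e-04) and 1.16-fold with mtLys LNA (0.22 ± 0.0382, 2.90e-05), and did not pass with mtAsn-2 LNA (-0.07, approximate 95% interval -0.15 to 0.0033, 0.121), where its libraries lay below those of control. ZBTB25, on the opposite strand, shares 5.64% of the exon length of MTHFD1 and passed against control with none of the LNAs.

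ALDH1L2, the mitochondrial enzyme that burns folate-bound formyl units to carbon dioxide (chromosome 12, 105019784 to 105084609, minus strand), rested on 9 to 66 reads per library. It stood at 1.20, 0.715 and 1.44 CPM in control, 0.443, 1.26 and 0.791 with mtAsn-1 LNA, 1.71, 1.56 and 2.01 with mtAsn-2 LNA and 0.755, 0.703 and 0.633 with mtLys LNA. The mtAsn-2 libraries were all above the control libraries, and the other groups overlapped control. ALDH1L2 rose 1.64-fold with mtAsn-2 LNA (0.71 ± 0.235, edgeR adjusted p = 0.0123), which ended when control replicate 2 (0.43, adjusted p = 0.158) or mtAsn-2 replicate 3 (0.61, 0.0529) was left out. It did not pass with mtAsn-1 LNA (-0.40 ± 0.297, adjusted p = 0.277) or mtLys LNA (-0.61 ± 0.28, 0.0747), where it passed without control replicate 2 (-0.88, 0.0151).

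MAT2A, the S-adenosylmethionine synthase (chromosome 2, 85539168 to 85545281, plus strand), was the most abundant of the 10 in control and fell about 2-fold with each tRNA LNA. It stood at 427, 469 and 416 CPM in control, 210.4, 193 and 218 with mtAsn-1 LNA, 218, 217.5 and 216 with mtAsn-2 LNA and 217, 219 and 229 with mtLys LNA. Every tRNA LNA library lay far below the lowest control library, and the 3 tRNA LNA groups overlapped each other. MAT2A fell 2.11-fold with mtAsn-1 LNA (-1.08 ± 0.046, edgeR adjusted p = 1.32e-16), 2.02-fold with mtAsn-2 LNA (-1.01 ± 0.0454, 1.17e-16) and 1.98-fold with mtLys LNA (-0.98 ± 0.0454, 5.71e-16). Among the same 10853 genes, 72, 137 and 73 had a lower log2 fold change in these comparisons. GGCX, the vitamin K-dependent carboxylase gene on the opposite strand, shares 562 bases (19.95% of MAT2A exon length) and moved the other way. GGCX stood at 83.3 ± 5.37 CPM in control, 134 ± 12.4 with mtAsn-1 LNA, 111 ± 5.25 with mtAsn-2 LNA and 133 ± 2.43 with mtLys LNA (SD, n = 3; log2 fold changes 0.69, 0.41 and 0.68, all past the test). Whether the kit or the counting kept strand is not stated, so reads in the shared bases cannot be told apart, and the part of the shared bases in the MAT2A values was not tested.

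Counted over the enzymes, 3 of 10 rose and 4 fell with mtAsn-1 LNA, 3 rose and 3 fell with mtAsn-2 LNA, and 2 rose and 5 fell with mtLys LNA. In the same comparisons 48.5%, 51.1% and 48.5% of all 16051 genes tested passed, so calls on 7, 6 and 7 of 10 enzymes lie near the background. Higher genes made up 24.3%, 24.1% and 24.6% of all genes, and lower genes 24.2%, 27.0% and 23.9%. The median log2 fold change of the 10 enzymes was -0.33, -0.07 and -0.38, and that of all genes was 0.00, -0.01 and 0.00. MAT2A fell 1.98-fold or more with each tRNA LNA, and PHGDH did so with mtAsn-1 LNA and mtLys LNA. Every other call on these enzymes against control was a smaller change, with that of PSAT1 with mtLys LNA close behind.

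Direct comparisons of the tRNA LNAs ask whether the enzymes respond alike to different oligonucleotides. Between mtAsn-1 LNA and mtAsn-2 LNA, which are named for the same tRNA, 6 of 10 enzymes passed, 2 higher and 4 lower, with 46.5% of all genes passing (24.6% higher and 21.9% lower). PHGDH was 1.73-fold lower with mtAsn-1 LNA (-0.79 ± 0.0788, edgeR adjusted p = 2.35e-09), MTHFD2 1.63-fold lower (-0.71 ± 0.0526, 6.44e-12), PSAT1 1.24-fold lower (-0.31 ± 0.0574, 1.29e-04) and ALDH1L2 2.17-fold lower (-1.11 ± 0.259, 7.91e-04). MTHFD1L (0.37 ± 0.0519) and MTHFD1 (0.26 ± 0.0384) were higher with mtAsn-1 LNA. SHMT2 (0.01, approximate 95% interval -0.07 to 0.09, adjusted p = 0.843) and MAT2A (-0.07, -0.16 to 0.02, 0.248) did not pass, and PSPH (0.10, 0.0795) and SHMT1 (-0.29, 0.69) did not either.

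Between mtAsn-1 LNA and mtLys LNA, 5 of 10 enzymes were higher with mtAsn-1 LNA and 0 were lower, while 5.26% of all genes passed (2.12% higher and 3.14% lower). That share stands for 845 genes, a count that was 404 without mtLys replicate 2, 417 without mtLys replicate 3, 501 without mtAsn-1 replicate 2 and 558 without mtAsn-1 replicate 1. The counts of enzymes by DESeq2 were the same, 5 and 0. PSAT1 was 1.29-fold higher (0.37 ± 0.0584, edgeR adjusted p = 4.68e-04), SHMT2 1.22-fold higher (0.29 ± 0.0391, 3.68e-05) and PHGDH 1.28-fold higher (0.36 ± 0.0865, 0.0131). PSPH (0.17 ± 0.0491, 0.0347) and MTHFD1L (0.18 ± 0.0515, 0.0405) passed narrowly and did not pass when any 1 of the 6 libraries compared was left out. PSAT1 and SHMT2 passed whichever of the 12 libraries was left out. The count of 5 fell to 3 without mtAsn-1 replicate 1 or 3 or mtLys replicate 1, to 2 without mtAsn-1 replicate 2 or mtLys replicate 2 or 3, and to 3 without the filter on low counts. PHGDH did not pass without mtAsn-1 replicate 2 (adjusted p = 0.0589) or mtLys replicate 2 (0.0616) or 3 (0.0561). MTHFD2 (0.16 ± 0.0544, adjusted p = 0.091), MTHFD1 (-0.03, 0.747), MAT2A (-0.10, approximate 95% interval -0.19 to -0.0062, 0.261), ALDH1L2 (0.20, 0.785) and SHMT1 (-0.25, 0.86) did not pass.

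Between mtAsn-2 LNA and mtLys LNA, 7 of 10 enzymes passed, 5 higher and 2 lower, with 48.6% of all genes passing (22.9% higher and 25.7% lower). PHGDH was 2.22-fold higher with mtAsn-2 LNA (1.15 ± 0.0766, edgeR adjusted p = 5.85e-13), and 16 of the 10853 genes had a higher log2 difference. MTHFD2 was 1.82-fold higher (0.87 ± 0.0513, 4.31e-14), PSAT1 1.60-fold (0.68 ± 0.057, 1.28e-09), SHMT2 1.21-fold (0.28 ± 0.0389, 9.20e-07) and ALDH1L2 2.50-fold (1.32 ± 0.241, 4.51e-05). MTHFD1 (-0.29 ± 0.0379, 3.29e-07) and MTHFD1L (-0.20 ± 0.0507, 0.00194) were lower with mtAsn-2 LNA. MAT2A differed by -0.03 (approximate 95% interval -0.12 to 0.06, adjusted p = 0.618), and PSPH (0.07, 0.24) and SHMT1 (0.04, 0.953) did not pass.

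**Figure D3:**
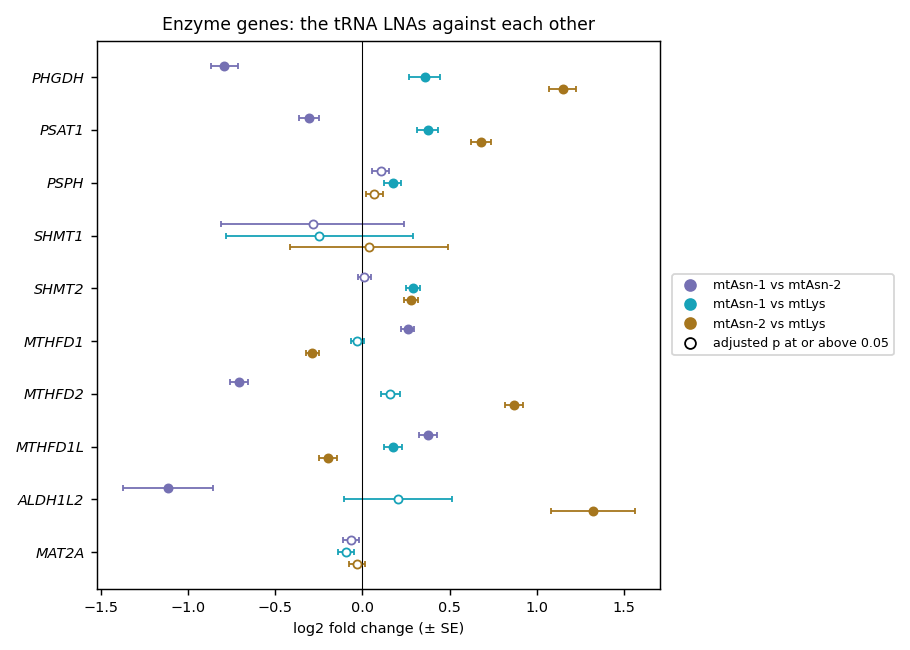
Log2 fold change of each enzyme gene between pairs of tRNA LNAs (horizontal axis, first named over second named), with bars of 1 SE. Filled points passed an adjusted p of 0.05. MAT2A lies at -0.07, -0.10 and -0.03 and is open in every pair, while PHGDH is filled in every pair at -0.79, 0.36 and 1.15.

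Ratios of partner enzymes within a library do not depend on how libraries are scaled and are given as descriptions. MTHFD2 stood at 0.249 ± 0.00821 of the MTHFD1 level in control (ratio of RPKM, SD, n = 3), at 0.184 ± 0.00439 with mtAsn-1 LNA, 0.360 ± 0.0209 with mtAsn-2 LNA and 0.162 ± 0.00359 with mtLys LNA. The mitochondrial share of this pair was thus highest with mtAsn-2 LNA, and no 2 groups overlapped. PSAT1 exceeded PHGDH 19.7 ± 0.369-fold in control, 30.2 ± 0.589-fold with mtAsn-1 LNA, 21.8 ± 2.45-fold with mtAsn-2 LNA and 30.0 ± 0.945-fold with mtLys LNA. In mtAsn-2 replicate 3 that ratio was 19.0, below the control libraries (19.4 to 20.1), and in replicates 1 and 2 it was 22.9 and 23.4. MAT2A stood at 5.00 ± 0.336 times MAT2B, the gene of its regulatory subunit, in control and at 2.10 ± 0.0893, 2.25 ± 0.129 and 2.36 ± 0.0718 times with mtAsn-1, mtAsn-2 and mtLys LNA. MAT2B itself rose by 0.17 ± 0.0507 with mtAsn-1 LNA and 0.14 ± 0.0495 with mtAsn-2 LNA in log2 (the latter call lost without control replicate 1 or mtAsn-2 replicate 1) and did not pass with mtLys LNA (0.10, edgeR adjusted p = 0.0926). MTHFD1L stood at 0.0516 ± 0.00266 of MTHFD1 in control and at 0.0632 ± 0.00395, 0.0581 ± 2.15e-04 and 0.0546 ± 0.00216 with the tRNA LNAs in the same order.

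**Figure D4:**
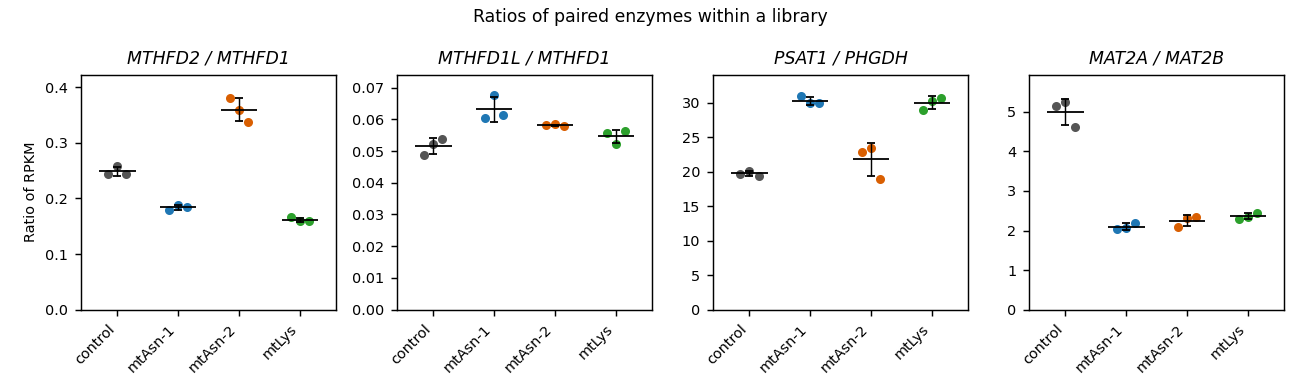
Ratio of RPKM of partner enzymes within each library (vertical axes, starting at 0) by LNA group. Points are libraries, bars the mean and SD (n = 3). MTHFD2 over MTHFD1 runs from 0.162 with mtLys LNA to 0.360 with mtAsn-2 LNA, and MAT2A over MAT2B drops from 5.00 in control to between 2.10 and 2.36.

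Other genes of the connected pathways were taken from lists. Of 14 tested of 15 other folate enzymes and transporters, 2 rose and 4 fell with mtAsn-1 LNA, 2 and 5 with mtAsn-2 LNA, and 1 and 6 with mtLys LNA, with list medians of -0.06, -0.29 and -0.13 in log2. That is 6, 7 and 7 of 14 called, with 48.5%, 51.1% and 48.5% of all genes tested called in the same comparisons, near the background. FPGS, which adds glutamates to folate and holds it in the cell, rose with each LNA (0.54 ± 0.0429, 0.35 ± 0.0422 and 0.45 ± 0.0421, edgeR adjusted p at most 7.77e-08).

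Of 13 tested of 16 genes of serine and glycine handling, 3 rose and 4 fell with mtAsn-1 LNA, 2 and 3 with mtAsn-2 LNA and 4 and 3 with mtLys LNA. These 7, 5 and 7 of 13 called lie near the background of 48.5%, 51.1% and 48.5% of all genes. SLC1A5, a carrier of neutral amino acids, fell with mtAsn-1 LNA (-0.55 ± 0.0462) and mtLys LNA (-0.64 ± 0.0459), and stood at -0.11 ± 0.0455 with mtAsn-2 LNA (edgeR adjusted p = 0.037), where its libraries overlapped control. The mtAsn-2 call was lost without control replicate 1 or 2, without any 1 of the mtAsn-2 libraries, with DESeq2, without a filter on low counts and with the compared groups alone. The glycine transporter gene SLC6A9 rose with mtAsn-1 LNA (0.40 ± 0.0606) and mtLys LNA (0.44 ± 0.0588), and did not pass with mtAsn-2 LNA (0.02 ± 0.0597, edgeR adjusted p = 0.77). Of the sideroflexin genes, whose family includes the mitochondrial serine carrier, SFXN2 rose with each LNA (0.94 ± 0.0979, 0.60 ± 0.0959 and 0.79 ± 0.0948). SFXN3 fell with mtAsn-2 LNA (-0.32 ± 0.0404) and mtAsn-1 LNA (-0.17 ± 0.0409) and did not pass with mtLys LNA (adjusted p = 0.281). SFXN1, of the same family, was singled out after its values were seen. It stood at 160.5 ± 5.79 CPM in control (SD, n = 3), where SFXN2 stood at 8.18 ± 1.05. SFXN1 was at 133 ± 2.91 CPM with mtAsn-1 LNA, 157 ± 9.69 with mtAsn-2 LNA and 139.5 ± 3.38 with mtLys LNA. Its fall with mtAsn-1 LNA passed the test (-0.27 ± 0.0451, edgeR adjusted p = 1.37e-05) and was not recomputed in other settings.

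Of 14 tested of 18 genes of the methionine cycle, methionine salvage and polyamine synthesis, 5 rose and 2 fell with mtAsn-1 LNA, 9 and 4 with mtAsn-2 LNA and 4 and 2 with mtLys LNA. Of all genes 48.5%, 51.1% and 48.5% were called, against 7, 13 and 6 of these 14. MTRR, which reactivates methionine synthase, rose with mtAsn-2 LNA (0.43 ± 0.0532) and mtLys LNA (0.15 ± 0.054, edgeR adjusted p = 0.0224). It did not pass with mtAsn-1 LNA (0.03, 0.648), and its mtLys call was lost without control replicate 1 or 3 or mtLys replicate 3. AHCY, which clears the product of methylation reactions, rose by 0.31 ± 0.0394 with mtAsn-2 LNA. With mtAsn-1 LNA (0.12 ± 0.0399) its call did not survive leaving out control replicate 3 or mtAsn-1 replicate 1 or 3, and with mtLys LNA (0.11 ± 0.0395) leaving out control replicate 1 or 3 or mtLys replicate 2 or 3. The spermine synthase gene SMS fell with mtAsn-2 LNA (-0.54 ± 0.0419) and rose with mtAsn-1 LNA (0.15 ± 0.0419, adjusted p = 0.00445). METTL16, whose protein is known to act on MAT2A RNA, was singled out after its values were seen: it fell with mtAsn-1 LNA (-0.18 ± 0.0497) and mtLys LNA (-0.23 ± 0.048) and rose with mtAsn-2 LNA (0.15 ± 0.047). MTAP, the methionine salvage enzyme, was also singled out after its values were seen: it had 0 reads in each library, which allows at most 0.167 CPM in the smallest (3 counts, counting error only).

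Of the 2 transsulfuration genes, CBS had at most 1 read in a library and was not tested. CTH, which makes cysteine at the end of that route, stood at 19.7 ± 0.173 CPM in control, 8.63 ± 1.99 with mtAsn-1 LNA, 13.5 ± 0.654 with mtAsn-2 LNA and 7.11 ± 0.591 with mtLys LNA. CTH fell in each comparison (-1.22 ± 0.104, -0.55 ± 0.091 and -1.48 ± 0.0994, edgeR adjusted p at most 1.31e-05).

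**Figure D5:**
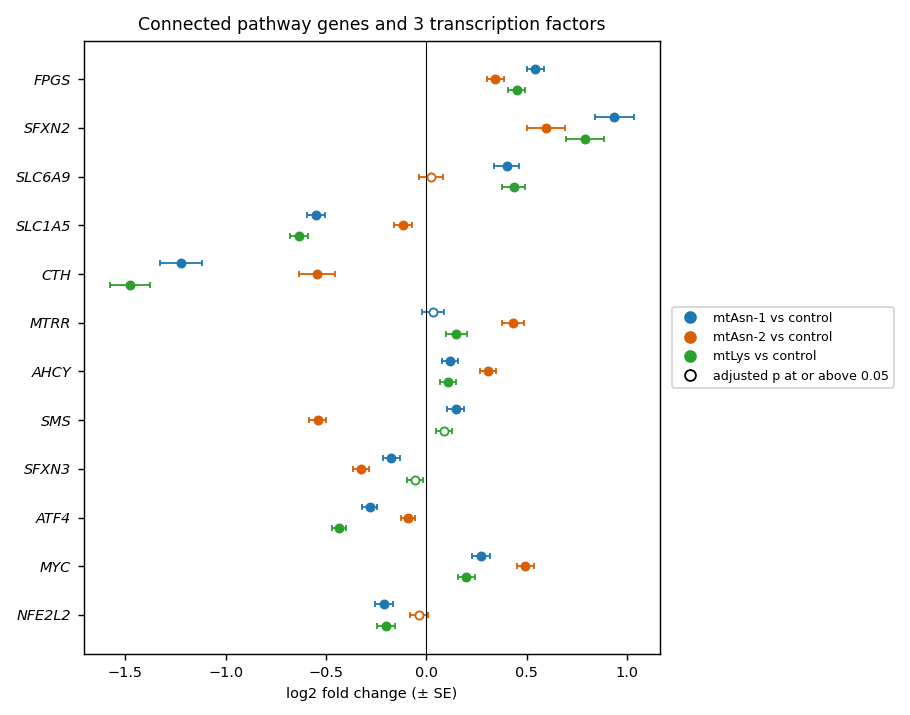
Log2 fold change against the control LNA (horizontal axis, bars of 1 SE) of named genes of connected pathways and of 3 transcription factors. Filled points passed an adjusted p of 0.05. CTH lies below 0 and FPGS and SFXN2 above 0 with each tRNA LNA, and SMS lies at -0.54 with mtAsn-2 LNA.

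Of transcription factors known to act on these enzymes, ATF4 RNA stood at 549.9 to 573 CPM in control, 453 to 468 with mtAsn-1 LNA, 515 to 535 with mtAsn-2 LNA and 409.7 to 417 with mtLys LNA. Its groups did not overlap and had the same order as those of PHGDH and PSAT1. The group means of the other enzymes did not have this order. MTHFD2, for example, was highest with mtAsn-2 LNA (87.55 ± 6.19 CPM, against 63.6 ± 3.78 in control, SD, n = 3), where ATF4 lay below control. The share of all genes with this order was not counted, and the part of ATF4 in the enzyme levels was not tested. ATF4 fell by 0.28 ± 0.0359 with mtAsn-1 LNA and by 0.43 ± 0.0358 with mtLys LNA in log2. With mtAsn-2 LNA it stood at -0.09 ± 0.0356 (edgeR adjusted p = 0.0347), which no longer passed on leaving out control replicate 2, mtAsn-2 replicate 1 or 2 or mtLys replicate 2, with RLE factors, without a filter and with the compared groups alone. MYC rose with each LNA (0.27 ± 0.044, 0.49 ± 0.043 and 0.20 ± 0.0433), and NFE2L2 (the gene of NRF2) fell with mtAsn-1 LNA (-0.21 ± 0.0465) and mtLys LNA (-0.20 ± 0.0455) and did not pass with mtAsn-2 LNA (adjusted p = 0.55).

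The genes most like 4 of the enzymes were found as those with the smallest root mean square difference in log2 CPM, each gene centred on its own mean of the 12 libraries, among 10853 genes. For PHGDH these were ZNF844 (0.164), CTH (0.172) and CHAC1 (0.178), and for PSAT1 they were CEBPG (0.104), GRPEL2 (0.112) and RMND5A (0.115). For MTHFD2 they were ENTPD1 (0.0883), FUT4 (0.0886) and TMEM268 (0.0918), and for MAT2A they were MKNK2 (0.0899), AJUBA (0.0939) and TOB1 (0.0974). None of these was 1 of the 10 enzymes. Among the enzymes PHGDH lay closest to PSAT1 (0.283), PSAT1 to MTHFD2 (0.279) and MAT2A to PSAT1 (0.322). The measure takes in the size of the steps between groups as well as their order, and all genes share the same libraries.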

How the data were processed

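RNA of 12 transfected samples was sequenced and counted per gene. Values are deposited as raw counts, 1 column a library, without normalisation. Per the submitters' processing notes, the tools were FastQC, STAR 2.6.0a, featureCounts and DESeq2 and the build was hg38. Whether strand was used, and how multiply mapping reads were treated, is not given in the sources used here. Broken lines of 12 genes were left out with their fragments (38 of 52897 lines, at most 0.141% of a library's counts). The main test was edgeR's robust quasi-likelihood F test (version 4.0.16, R 4.3.3) with TMM factors in 1 fit of all 12 libraries. Genes were kept by filterByExpr over the groups (count 10, total 15), p-values were Benjamini-Hochberg adjusted over the 16051 genes of each comparison, and calls needed an adjusted p under 0.05. SE was obtained by dividing a log2 fold change by the root of F, and approximate 95% intervals extend 1.96 SE to each side. CPM uses TMM-scaled totals (raw totals in the counting intervals and exact tests of SHMT1), and log2 CPM a prior count of 2.

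Named were the 10 enzymes, 3 transcription factors, and up to 3 rises and 3 falls from the pathway lists per comparison with control by smallest adjusted p. Also named were some of the overlapping genes and copies, and the 3 genes most like each of 4 enzymes. METTL16, MTAP and SFXN1 were singled out after their values were seen. Some genes of the lists are counted but not reported here by name. The enzymes and lists were chosen with earlier results of these data known. No copied library was found (chi-square per gene 2.43 or more between replicates). The test was checked on simulated counts with the same spread for every gene and far fewer changed genes than were called here. It recovered 69.6% of genes changed 1.25-fold, 69.8% at 1.5-fold, 86.5% at 2-fold and 100% at 4-fold. Of 167 calls there, 4 were false. That setting cannot show how the test behaves when many genes change. As alternatives, the counts of calls and the enzymes' fold changes were recomputed with DESeq2 1.42.0, RLE factors, other filters on low counts, a replicate block, the compared groups alone, and each library left out; the same was done for 23 other named genes against control, added after the data had been seen. Ratios, levels and likeness were not recomputed. Figures were drawn with matplotlib 3.10.9 under Python 3.11.15.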

Additional observations from a re-analysis of the deposited data

How the results depend on the processing

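Of 1065 recomputed enzyme values, 1027 kept their direction and their side of the threshold, 25 lost a call, 1 gained one and 12 changed sign, none of the 12 from a called value. Many of these values, and of those of other genes below, left out a library of neither compared group. Such values could change little, so these counts do not measure how stable a call is. With 1 library left out, SHMT1 ran from -0.58 to 0.043 (mtAsn-2 LNA against control), -0.80 to 0.11 (mtLys LNA against control), -0.72 to 0.20 (mtAsn-1 against mtLys LNA) and -0.43 to 0.48 (mtAsn-2 against mtLys LNA). In the last of these it stood at -0.010 with DESeq2 and -0.0025 with a replicate block. SHMT2 between the asparagine LNAs ran from -0.021 to 0.036 and stood at -0.014 without a filter. ALDH1L2 between mtAsn-1 and mtLys LNA ran from -0.13 to 0.48. Between mtAsn-1 and mtLys LNA, 845 genes were called in all, and 404 to 922 with 1 library left out: 404 without mtLys replicate 2, 417 without mtLys replicate 3, 501 without mtAsn-1 replicate 2 and 558 without mtAsn-1 replicate 1. The enzymes called there numbered 5, against 3 without a filter and 2 to 5 with 1 library left out, and the cause was not tested. With a replicate block they numbered 3, as PSPH (adjusted p = 0.061) and MTHFD1L (0.0627) did not pass, and the block changed no other enzyme's call. Replicate numbers did not pair the libraries (correlation of deviations from group means -0.0991 to 0.0417 over 18 same-numbered pairs, with 2 of 12 libraries closest to their own number). Of 1231 values of 23 other named genes against control, added after the data had been seen, 1167 kept direction and side of the threshold, 39 lost a call, 12 gained one and 13 changed sign, none from a called value. Left-out libraries gave ranges that cross 0 for PSPHP1 with mtAsn-1 LNA (-0.046 to 0.069; -3.0e-04 with a replicate block) and mtAsn-2 LNA (-0.015 to 0.079), and for ZBTB25 (-0.15 to 0.011) and MTRR (-0.0052 to 0.067) with mtAsn-1 LNA. With mtAsn-2 LNA they did so for SLC6A9 (-0.050 to 0.080), LYZ (-0.18 to 0.21) and CD14 (-0.14 to 0.16). With the block, ATF4 with mtAsn-2 LNA did not pass (adjusted p = 0.0572). The stricter filter left SHMT1 and ALDH1L2 untested, and SHMT1 had no value in 2 comparisons with the compared groups alone and in 1 with DESeq2. Depth limits these 2 enzymes.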
